A study of Homo sapiens with 2 samples.

Results

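PROX1 peaks on human chromosome 17 are described here by position, by clustering and by tag count. The members were chosen by position from the authors' peak list: all peaks on chromosome 17 whose centre lay outside the 1 Mb window from 60 to 61 Mb. There were 998 of them, out of 23450 peaks in the whole list. Of the 1054 peaks on the chromosome, 56 lay in the window that was left out. Chromosome 17 was picked because the list holds many peaks for its length, so its density and every measure that follows from density are given as descriptions with no test. The list came from chromatin immunoprecipitation and sequencing (ChIP-seq) of SW480R cells, a subpopulation of SW480, which is an established line of epithelial tumour cells from a human colorectal adenocarcinoma. The PROX1 library was made with a goat antibody against human PROX1 and held 3 pooled immunoprecipitations, and the comparison library was input DNA of the same cells with no antibody. Both libraries came from untreated cells of the same line, with 1 library of each kind, so there is no replicate spread and no second condition. SW480 is an aneuploid tumour line from 1 patient, which limits what its chromosome 17 can stand for.

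PROX1 is a homeobox transcription factor that binds DNA through its homeodomain and Prospero domain and can activate or repress its targets. It directs lymphatic, liver and lens development. In colorectal tumours it is switched on downstream of Wnt signalling in a subset of cells. Chromosome 17 is a gene-rich chromosome. Its long arm carries NF1, the receptor gene ERBB2, the type I keratin genes, BRCA1, the HOXB homeobox cluster, the Wnt feedback inhibitors RNF43 and AXIN2, and SOX9, a regulator of intestinal crypt cells. These genes are named only to place the bands, since no gene annotation of the files' build (hg18) was used here and no peak was assigned to a gene.

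Chromosome 17 held 12.8 peaks per Mb, counting the 77.8 Mb outside the left-out window (exact Poisson 95% interval 12.05 to 13.7). The other 21 autosomes together held 7.84 peaks per Mb (7.74 to 7.94), so the density of chromosome 17 was 1.64 times theirs. It was the highest of the 22 autosomes, followed by chromosome 20 with 12.5 (11.7 to 13.4) and chromosome 12 with 9.87 (9.34 to 10.4). The intervals of chromosomes 17 and 20 overlapped. These densities are over length with assembly gaps. Over length without assembly gaps their order turned, with 12.99 peaks per Mb on chromosome 17 and 13.1 on chromosome 20. Chromosomes 22 (11.8) and 21 (11.2) then came next, and chromosome 12 was at 10.02. The ratio of chromosome 17 to the other autosomes was then 1.55. Over length with gaps, the lowest autosome was chromosome 4 with 4.17. Chromosome 19, the most gene-dense human chromosome, held 7.98 peaks per Mb with gaps and 9.12 without. All intervals of densities and shares cover counting error only and take neighbouring peaks as independent.

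The peaks were unequally divided between the arms. The short arm, up to the centromere boundary at 22.2 Mb of hg18, held 208 peaks at 9.37 per Mb (8.14 to 10.7). The long arm held 790 peaks at 14.2 per Mb (13.2 to 15.2), or 1.52 times the density of the short arm. Set against the other autosomes, the short arm was at 1.20 times and the long arm at 1.81 times their density. Of 17 autosomes with a short arm of more than 10 Mb of sequence, chromosome 17 had the densest long arm over length with assembly gaps. That of chromosome 20 came next at 12.7. Its short arm was inside the range of the other 16, which ran from 3.80 on chromosome 9 to 12.3 on chromosome 20, with a median of 8.85. The ratio of long to short arm was the third highest of the 17, after chromosomes 9 (1.99) and 5 (1.90), and the median of the other 16 was 0.921.

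The change in density did not fall at the centromere. The first part of the long arm, bands q11.1 to q12, held 120 peaks at 9.09 per Mb (7.54 to 10.9), close to the short arm. From band q21.1, at 35.4 Mb, to the end of the arm there were 670 peaks at 15.8 per Mb (14.6 to 17.1). The part from the short arm end to q12, called proximal below, held 328 peaks at 9.27 per Mb (8.29 to 10.3). The distal part, from q21.1 on, was therefore 1.71 times as dense as the proximal part. Against the other autosomes the proximal part was at 1.18 times and the distal part at 2.02 times their density. This division was set after the peaks had been counted by window. Its bound is a band edge close to where the window count rose, not the exact point of the rise. The window that spans it, from 35 to 36 Mb, held 38 peaks, after 6 at 34 to 35 Mb. The end of q12 may therefore share in the rise.

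**Figure D1:**
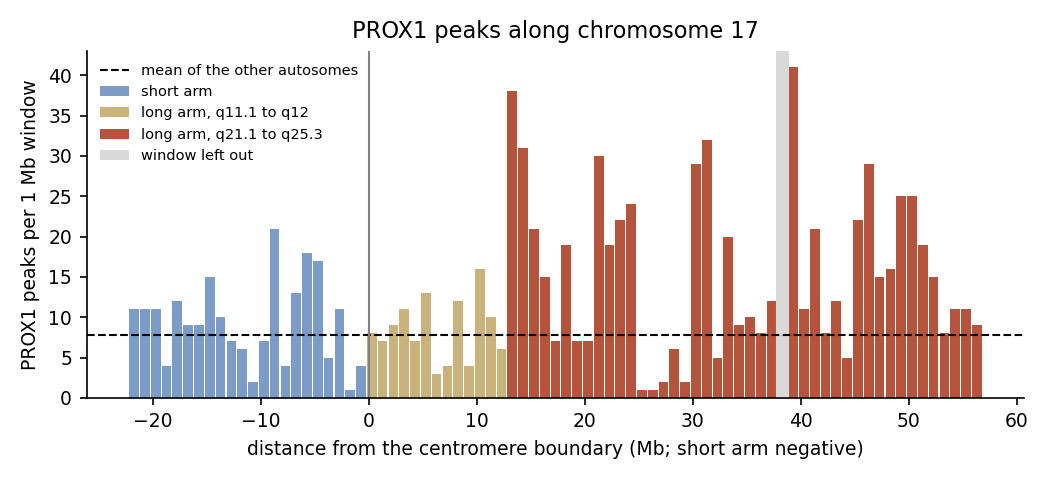
PROX1 peaks in each 1 Mb window of chromosome 17, against distance from the centromere boundary in Mb (short arm negative), with the left-out window in grey and the mean of the other autosomes as a dashed line. Windows that end by 35 Mb of hg18 reach at most 21 peaks, while windows from 35 Mb on reach 41 peaks and include a trough of 5 windows with 12 peaks in all.

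By 1 Mb window, the peaks reached nearly the whole chromosome. Each of the 77 full windows held at least 1 peak, and the median was 11 peaks (quartiles 7 and 18). Allowing 3 counts for 0 empty windows seen would be 3.90%, a limit for counting error only. In the other autosomes 548 of 2778 windows (19.7%) were empty, and the median was 5. Some of those windows lie in assembly gaps. Among windows with at least 0.9 Mb of sequence, 0 of 76 on chromosome 17 and 363 of 2556 elsewhere (14.2%) were empty. More than 20 peaks were found in 15 of the 77 windows (19.5%), where 8.69% of all autosomal windows passed that number. Because the chromosome was picked for its density, nothing is read from that difference. Within the chromosome, 14 of these 15 windows lay among the 42 windows from 35 Mb on, and 1 lay among the 35 windows before it.

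The fullest window of the long arm, at 61 to 62 Mb, held 41 peaks with a median of 34 tags. It adjoins the left-out window, whose 56 peaks exceed the count of any other window. Next came 35 to 36 Mb with 38 peaks and a median of 30.5 tags, and 53 to 54 Mb with 32 peaks and a median of 43.5 tags. The windows at 36 to 37 Mb and 43 to 44 Mb held 31 and 30 peaks. On the short arm the fullest window, at 13 to 14 Mb in band p12, held 21 peaks with a median of 24 tags. It was followed by 16 to 17 Mb with 18 peaks, 17 to 18 Mb with 17, 7 to 8 Mb with 15 and 15 to 16 Mb with 13. The fullest short-arm window thus held fewer peaks than the 5 fullest of the long arm. The 10 fullest windows all lay from 35 Mb on and held 304 peaks, 30.5% of the members in 12.8% of the windows. Windows picked as the fullest hold more than their share by construction.

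Dense and sparse stretches alternated on the distal long arm. From 35 to 37 Mb, where q12 gives way to the q21 bands with the keratin genes, there were 69 peaks, or 34.5 per Mb (26.8 to 43.7). From 43 to 47 Mb, which takes in the HOXB bands, there were 95 peaks at 23.8 per Mb (19.2 to 29.0). Then followed the sparsest stretch of the chromosome. The 5 windows from 47 to 52 Mb, mostly in band q22, held 1, 1, 2, 6 and 2 peaks, which is 2.40 per Mb (1.24 to 4.19) or 0.306 times the density of the other autosomes. Directly beyond it, 52 to 54 Mb held 61 peaks at 30.5 per Mb (23.3 to 39.2). Toward the arm end, 67 to 69 Mb held 51 peaks and 71 to 73 Mb held 50. The bounds of these stretches were set after the window counts were seen.

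The longest stretch without a peak, 1424 kb from 49357111 to 50781271, lay in q22 inside this trough. Nearby were further empty stretches of 999 kb (47082851 to 48081531) and 977 kb (48081571 to 49058831), parted by a single peak. On the short arm the longest ran from 21301411 to 22588031 across the centromere boundary. It measured 1287 kb, of which 1087 kb is sequence and the rest assembly gap. The 12 peaks from 47 to 52 Mb had 14 to 52 tags with a median of 23.5, below the median of 27 of all members. Of them, 5 (41.7%, exact binomial 95% interval 15.2 to 72.3) had a fold over input of at least 26.06, where 30.4% of all autosomal peaks did. An input of 2 or more tags, as inferred from tags and fold, was found for 0 of the 12 and for 24.3% of all autosomal peaks. With only 12 peaks, nothing is read from either count. A fold is the authors' ratio of ChIP to input tags, and peaks at 26.06 or above, 2 times the lowest fold in the list, are called strong.

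By cytogenetic band, all 19 bands of at least 1 Mb outside the left-out window lay above the density of the other autosomes, and in 9 of them the whole interval did. The lowest of the 19, q23.2 at 8.21, still ranked 359th of 772 autosomal bands of at least 1 Mb, so many bands elsewhere pass that density too. The chromosome was picked for its density, so nothing is read from these counts. On the short arm the bands were alike, from 9.03 peaks per Mb in p11.2 to 10.0 in p13.2 and p12. Their intervals all overlapped. Bands q11.2, with NF1, and q12, with ERBB2, were at 8.57 and 9.39 peaks per Mb. In q21.2, the band of the type I keratins, the density was 27.7 (21.2 to 35.6), the 13th highest of 772 autosomal bands of that length. It was the only chromosome 17 band among the 20 densest.

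Farther out, q21.31, with BRCA1, held 56 peaks at 13.7 per Mb (10.3 to 17.7), and q21.32, with the HOXB cluster, held 55 peaks at 18.97 (14.3 to 24.7). Band q22, with RNF43, was at 10.5 over 7.30 Mb, which averages the trough and the dense stretch beyond it. The lowest distal band was q23.2 at 8.21 (5.21 to 12.3). Bands q24.2 and q24.3 were both at 16.3 peaks per Mb, the latter being the band of SOX9, and q25.1 was at 17.6. The terminal band q25.3 held 76 peaks at 12.9 (10.2 to 16.2). Shorter bands were denser, with wide intervals. The densest, q21.1, which opens the distal part, held 11 peaks in 0.2 Mb, or 55 per Mb (27.5 to 98.4). Band q25.2 held 21 peaks in 0.700 Mb and q23.1 held 19 in 0.700 Mb. Of q24.1, the band of AXIN2, 0.700 Mb lay outside the left-out window and held 28 peaks, or 40 per Mb (26.6 to 57.8). Whether AXIN2 itself lies inside or outside that window was not determined here, so this density is not one around the gene.

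**Figure D2:**
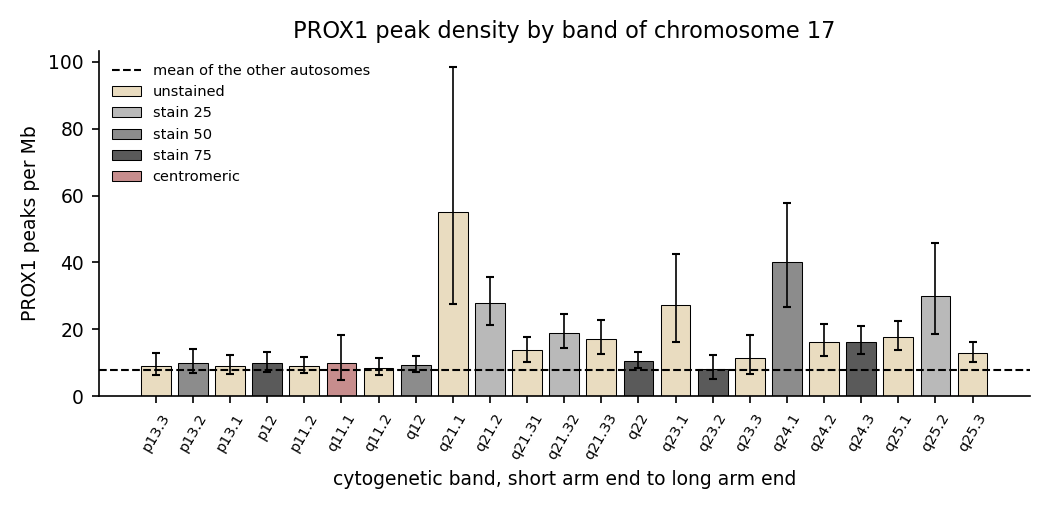
PROX1 peaks per Mb in the bands of chromosome 17 outside the left-out window (all but p11.1, which held 0 in 0.1 Mb), ordered from the short arm end to the long arm end and shaded by Giemsa stain. Bars are densities, error bars exact Poisson 95% intervals and the dashed line the mean of the other autosomes, and the bands from p13.3 to q12 sit between 8.57 and 10.0 while most bands from q21.1 on are higher.

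Giemsa stain sorts bands into unstained ones, which tend to be gene-rich, and stained ones graded from 25 to 100, which tend to be gene-poor. In the other autosomes the density was 10.5 peaks per Mb in unstained bands, 11.8 at stain 25, 8.93 at stain 50, 5.74 at stain 75 and 3.70 at stain 100. Chromosome 17 had the same order over the classes it has, with 12.4, 23.6, 11.6 and 11.2 from unstained to stain 75. The intervals of its unstained bands (11.4 to 13.6), stain 50 (9.65 to 13.9) and stain 75 (9.76 to 12.9) overlapped. All its stained bands together held 468 peaks at 13.4 per Mb (12.2 to 14.7), and its unstained bands held 520. Chromosome 17 was thus at 1.19 times the other autosomes within unstained bands and at 1.98 times within stained bands. By class, the ratio was 2.004 at stain 25, 1.30 at stain 50 and 1.96 at stain 75. The 3 bands at stain 25 all lie on the distal long arm.

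Chromosome 17 has no band of stain 100, a class that makes up 16.5% of the length of the other autosomes. Unstained bands make up 53.7% of its length, against 42.1% elsewhere. At the densities the other autosomes have in each stain class, its bands outside the centromere would hold 706 peaks. They held 988, which is 1.40 times as many. The part of band composition in the density was not tested.

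**Figure D3:**
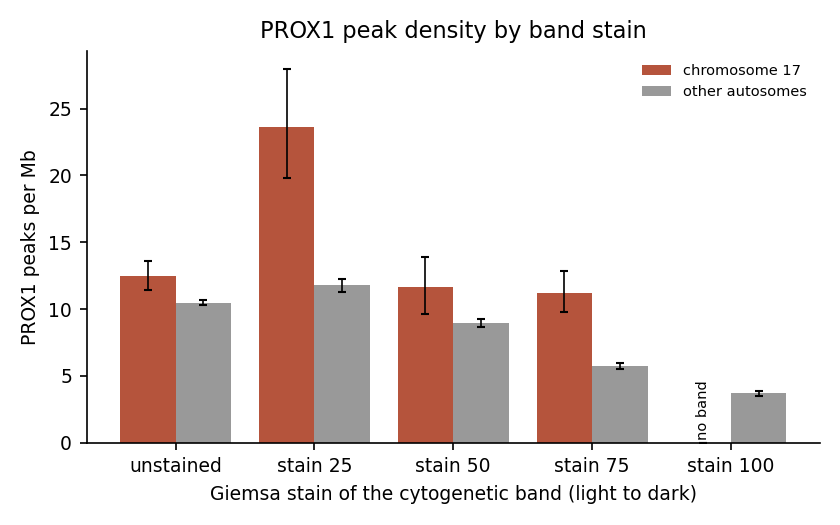
PROX1 peaks per Mb by Giemsa stain of the band, from unstained to the darkest class, for chromosome 17 and for the other 21 autosomes together, with exact Poisson 95% intervals. Both are highest at stain 25, at 23.6 on chromosome 17 and 11.8 elsewhere, and at stain 75 chromosome 17 is at 11.2 and the others at 5.74, while only the others have bands of stain 100, at 3.70.

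Most of the density of chromosome 17 came from more places with peaks rather than from fuller places. Peaks whose edges lay within 10 kb of each other were joined into 1 place. Over length with assembly gaps, chromosome 17 then held 599 places at 7.70 per Mb, the most of the 22 autosomes. The other autosomes together held 4.94, a ratio of 1.56 (1.47 over length without gaps). Each place held 1.67 peaks on average, against 1.59 elsewhere, a ratio of 1.05. For peaks per place chromosome 17 was the 6th of 22, and chromosomes 21 (1.89), 8 and 14 were among those above it. Of the 998 peaks, 593 had another peak within 10 kb, or 59.4% (exact binomial 95% interval 56.3 to 62.5), where 56.6% of all autosomal peaks had one. Spacing depends on density, so this share is not independent of the choice of chromosome.

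**Figure D4:**
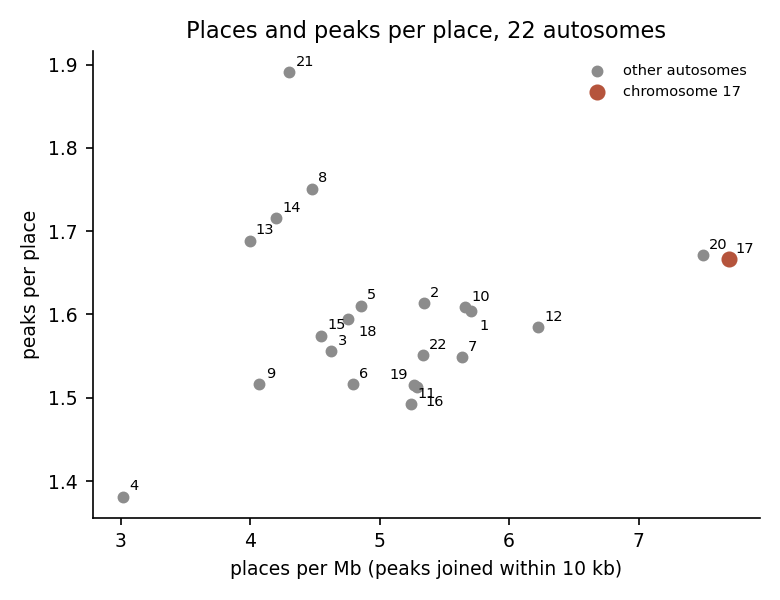
Places per Mb (peaks joined within 10 kb) against the mean number of peaks per place for the 22 autosomes, labelled by number. Chromosome 17 and chromosome 20 stand apart on the right, at 7.70 and 7.50 places per Mb of length with assembly gaps, and both lie inside the vertical range of the others.

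Inside the chromosome, both quantities rose toward the distal part. The proximal part had 6.36 places per Mb and 1.46 peaks per place, and the distal part 8.83 places per Mb and 1.79 peaks per place. The ratio was 1.39 for places and 1.23 for peaks per place. Neighbours within 10 kb were found for 52.1% of proximal peaks (46.6 to 57.8) and 63.0% of distal peaks (59.2 to 66.7). The median distance from a peak to the next was 36.2 kb in the proximal part and 16.02 kb in the distal part, against 26.2 kb in the other autosomes. The 2 parts were divided at a band edge close to where the window counts rose, so these differences are not independent of that division. Over 1 Mb windows, the variance of the counts was 6.15 times their mean without the left-out window, which is the fullest of the chromosome. With that window, an alternative added after seeing the data, the ratio was 7.60. The median of the other autosomes was 8.31, with 15 of them above 7.60 and 6 below. In windows of 100 kb the ratio was 3.30 without it and 3.45 with it, on either side of a value of 3.33 for the median of the others.

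Of the 599 places, 405 held a single peak, 171 held 2 to 4 peaks and 23 held 5 or more. Among those 23, 21 lay in the distal part, which held 374 of all 599 places and was bounded after the window counts were seen. In places of 5 or more, 41.1% of peaks were strong on chromosome 17 and 38.6% in the other autosomes. The places named below were picked for their members or tags, so nothing is read from their counts of strong peaks. The 2 largest places held 11 peaks each. One, at 53810171 to 53834571 in q22, spanned 24.4 kb with 816 tags, the most of any place on the chromosome, and 8 of its 11 peaks were strong. The other, at 55260311 to 55285551 in q23.1, had 362 tags over 25.2 kb and 4 strong peaks. A place of 10 peaks lay at 67919051 to 67942931 in q24.3, with 493 tags and 3 strong peaks. There were 4 places of 9 peaks. Of these, 68117351 to 68140231 in q24.3 held 632 tags, and 61011951 to 61036131 in q24.1 held 611.

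The remaining pair of 9 were the largest places of the short arm. They lay at 16130411 to 16157771 in p11.2 (374 tags) and 13185071 to 13209151 in p12 (364 tags), and 6 of the 9 peaks were strong in each. Compact places also carried many tags, such as 63885571 to 63895751 in q24.2, where 7 peaks in 10.2 kb held 532 tags, 212 of them in 1 peak. At 43904351 to 43917411 in q21.32, 7 peaks in 13.1 kb held 504 tags.

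Tag counts of chromosome 17 peaks were ordinary for the list. The median was 27 tags (quartiles 17 and 44, range 13 to 224) against 25 in the other autosomes (quartiles 17 and 44). The medians of single autosomes ran from 21 on chromosome 4 to 32 on chromosome 20, and chromosome 17 had the 4th highest. The number of 100 tags was reached by 50 members (5.01%, interval 3.74 to 6.55), where 5.59% of all autosomal peaks reached it. On chromosome 20, the one with a like density, the share was 13.7% (11.4 to 16.3). The upper end of the range was short. None of the 998 members had 250 tags or more. Allowing 3 counts for 0 seen puts the limit at 0.301%, with peaks taken as independent. Elsewhere 85 of 21862 peaks (0.389%) had that many, from 0% to 2.27% on single autosomes, so no deficit is read from this. Chromosomes 3, 4, 6, 11, 13, 16 and 22 had no such peak either. The maximum of 224 tags was the 19th of the 22 autosomal maxima. Summed over peaks, there were 480 tags per Mb, against 298 in the other autosomes and 666 on chromosome 20.

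**Figure D5:**
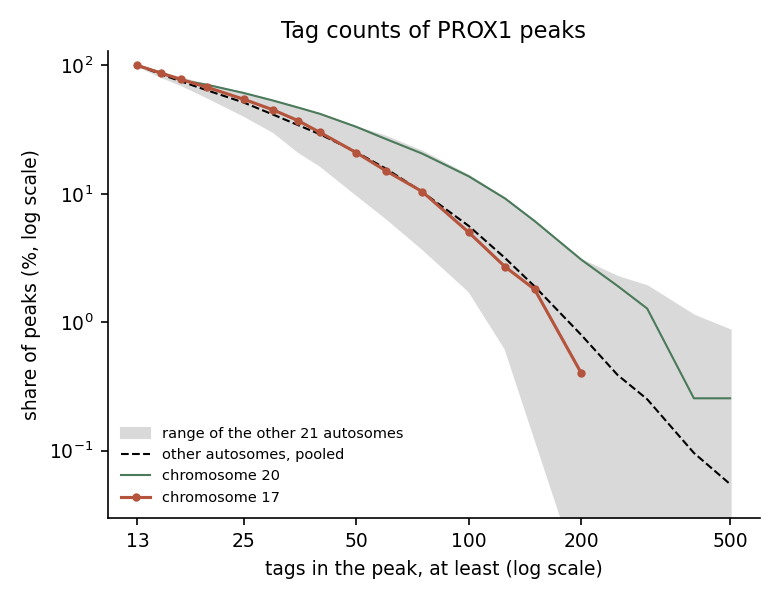
Share of peaks with at least the number of tags on the x axis, both axes on a log scale, for chromosome 17, chromosome 20, the other autosomes pooled and the range of the 21 single autosomes. Chromosome 17 follows the pooled curve up to about 150 tags, with 5.01% against 5.62% at 100 tags, and ends at 224 tags.

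Strong peaks made up 289 of the 998 members, or 29.0% (26.2 to 31.9), and 30.4% of all autosomal peaks were strong. The short arm had 27.9% (21.9 to 34.5) and the long arm 29.2% (26.1 to 32.5). The proximal and distal parts had 27.1% and 29.9%, again with overlapping intervals. At 100 tags or more there were 42 of 670 distal peaks (6.27%, 4.55 to 8.38) and 8 of 328 proximal peaks (2.44%, 1.06 to 4.75), whose intervals overlapped slightly. Band q21.31 had the smallest strong share of the larger bands, 17.9% (8.91 to 30.4), and the neighbouring q21.2 one of the largest, 37.7% (25.6 to 51.0). These intervals overlapped.

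Strength rose with the number of peaks in a place. Strong peaks were 22.5% of single peaks on chromosome 17 (18.5 to 26.9), 30.5% of peaks in places of 2 to 4 (26.1 to 35.1) and 41.1% of peaks in places of 5 or more (33.5 to 49.1). The other autosomes had 24.2%, 34.3% and 38.6% in these classes, in the same order. On chromosome 17 the intervals of the first and last class did not overlap. The last class was 163 peaks from only 23 places, and the intervals take peaks of 1 place as independent. They are therefore too narrow to be read as a test. The median tag counts were 24, 28 and 32 on chromosome 17 and 22, 28 and 31 elsewhere.

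The highest fold on the chromosome belonged to 36361111 to 36361351 in q21.2, with 189 tags at a fold of 189.47, in a place of 7 peaks. The peak ranked second, 53827031 to 53827131, had 156 tags at a fold of 156.39. It belongs to the place of 11 peaks in q22, as does the fifth, 53820291 to 53820431, with 120 tags at a fold of 120.3. Between them came 53967971 to 53968031 in q22 (148 tags, fold 148.37) and 55186951 to 55186991 in q23.1 (126 tags, fold 126.31). The short arm gave the sixth, 17802671 to 17802791 in p11.2 (110 tags, fold 110.27), and the seventh, 14600691 to 14600731 in p12 (106 tags, fold 106.26), which stood alone.

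The eighth, 61019911 to 61020051 in q24.1, had 121 tags at a fold of 104.26 and belongs to the place of 9 peaks beside the left-out window. The last 2 were 62378711 to 62378931 in q24.2 (96 tags, fold 96.24) and 14786631 to 14786971 in p12 (94 tags, fold 94.23). A fold of 100 or more was thus reached by 8 members (0.802%, interval 0.347 to 1.57), and 0.971% of all autosomal peaks reached it. Of the 10 strongest peaks, 7 were on the long arm, which held 790 of the 998 members, so nothing is read from this count.

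The members with the most tags were mostly others. The peak at 61015031 to 61015071 in q24.1 had 224 tags and a fold of 44.91. The second, 43915791 to 43916031 in q21.32, had 218 tags and a fold of 38.09. The third, 63891871 to 63891911 in q24.2, had 212 tags at a fold of 70.84. The fourth, 71042931 to 71042971 in q25.1, had 202 tags but a fold of only 14.46, near the lowest in the list. The fifth was the q21.2 peak of highest fold. The inferred inputs of the first 4, described next, ran from 3 to 14 after rounding, while each of the 10 peaks of highest fold was at the lowest after rounding, 1.

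Input tags behind each peak were inferred from its tags and fold. On chromosome 17, 293 peaks (29.4%, 26.5 to 32.3) had an inferred input of 2 or more, where 24.3% of all autosomal peaks did, and the share elsewhere was 24.1% (23.5 to 24.6). It was 28.0% in the proximal part (23.3 to 33.2) and 30% in the distal part (26.6 to 33.6). The share with 5 or more was 3.35% among proximal peaks (1.69 to 5.92) and 6.12% among distal ones (4.43 to 8.21). These intervals overlapped, and both took in the share of 4.60% in the other autosomes (4.32 to 4.88). The part of DNA copy number in the density was not tested, since inputs could be inferred only at listed peaks. Among peaks at the lowest inferred input alone, chromosome 17 was at 9.06 per Mb (8.41 to 9.76), 1.52 times the other autosomes. The proximal and distal parts were then at 6.67 and 11.07 per Mb.

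At the edges of the left-out window, the nearest member before it lay at 59847211 to 59847251 with 17 tags and the nearest after it at 61011951 to 61011991 with 58 tags. Inside it, the first peak, at 60086951 to 60086991, had 14 tags and the last, at 60991911 to 60991951, had 20. No place joined within 10 kb crossed either bound. The 56 peaks inside had a median of 30.5 tags and 30.4% of them were strong. With them included, the density of chromosome 17 was 1.71 times that of the other autosomes.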

How the data were processed

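One PROX1 ChIP-seq library and one input DNA library of SW480R cells were made, and the authors' peak list for the first against the second was used. Positions refer to hg18, the build named in the submitters' processing notes. For the aligner, the peak caller, the threshold it used and the depth of each library, nothing can be stated (not given in the sources used here). Columns carry no names in the file and were identified by their values. For each peak the authors deposited a count of tags, a whole number of at least 13 with no normalization. The deposited fold is a ratio of ChIP to input tags, from 13.03 upward. The deposited p-value is at most 0.00099 and was used for no call. Places without a listed peak have no value, and no input file was used.

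Chromosome lengths came from GenomeInfoDb 1.38.1, contig placements from IRanges 2.36.0 and cytogenetic bands from circlize 0.4.16 (R 4.3.3). Counts, intervals and plots were made with pandas 2.3.3, scipy 1.17.1, matplotlib 3.10.9 and numpy 2.4.6 under Python 3.11.15. Peaks were counted by centre, and the 1 Mb window that straddles the centromere boundary was counted with the short arm. Strong peaks have at least 2 times the lowest fold. Inferred input is tags times 1.002 divided by fold, and peaks were classed by its nearest whole number. It was whole, within 0.02, for 90.0% of members and for 100% of those of 60 bp or narrower, and rounding to 1 may stand for 0 or 1 tags. Coordinates are printed as listed, since whether starts count from 0 or 1 is unknown. Reads without molecular identifiers are not independent molecules. Counting was tested on simulated data.

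The members and the measures were chosen with earlier results of these data known. Named were the 10 members of highest fold, the 5 with the most tags, the 5 fullest windows of each arm, the places with the most members (5, extended to 7 by ties) and with the most tags, the bands and the peaks at the bounds. The proximal and distal parts, the stretches, the empty stretches and the input comparison were chosen after values were seen. No sequence is printed, because no hg18 genome was used here.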

Additional observations from a re-analysis of the deposited data

How the results depend on the processing

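The ratios of density kept their direction under each alternative run: 1.52 to 1.71 for chromosome 17 against the other autosomes, 1.42 to 1.596 for the long against the short arm, 1.46 to 1.65 for places, 1.11 to 1.24 within unstained and 1.84 to 2.15 within stained bands, and 1.56 to 1.81 for the distal against the proximal part. Of 54 alternative values, 38 lay within the counting interval of the reported one. The density ratio fell to 1.52, just outside its interval, among peaks of lowest inferred input, an alternative chosen after seeing the data. With the 11725 better-ranked peaks alone, 47.9% of members had a neighbour within 10 kb, places held 1.45 members, the median was 36 tags, 57.7% were strong and the 10 fullest windows held 34.3%, with 46.5%, 1.40, 35 and 60.9% for the first 4 in the other autosomes. Fewer and stronger peaks remain there by construction. Joining within 1 kb gave 31.8% with a neighbour and 1.23 members per place (33.1% and 1.23 elsewhere), and within 50 kb 83.9% and 2.87 (79.9% and 2.57 elsewhere). With peaks within 1 kb counted once, 42.9% had a neighbour (37.3% elsewhere). Strong shares were 48.9% at 1.5 times the lowest fold (49.6% elsewhere) and 10.9% at 3 times (13.6% elsewhere). Peaks of 60 bp or narrower had a median of 23 tags and a strong share of 25.26% (22 and 27.3% elsewhere). The cause of these differences between settings was not tested. No paired analysis was possible because there is 1 library of each kind. Tag counts under the list's lowest value, 13, cannot be seen.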
